A study of Rattus norvegicus with 9 samples.

Results

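The nuclear genes of mitochondrial oxidative phosphorylation were followed in the hypothalamus of female rats through puberty. Members were probe sets with exactly 1 symbol in the platform annotation, where that symbol began with Nduf, Uqcr, Cox4, Cox5, Cox6, Cox7, Cox8 or Atp5, or was Sdha, Sdhb, Sdhc, Sdhd or Cyc1. This gave 97 probe sets for 87 genes, out of 31042 probe sets and 14217 named genes on the array. Complexes were assigned by symbol prefix alone, without a check of each protein's place. This put 36 genes under complex I, 6 under its assembly factors, 4 under II, 8 under III, 17 under IV and 16 under V. A probe set is a group of short probes that reports the level of a transcript. The platform annotation gave several symbols to 7 further probe sets (those of Atp5mc1, Atp5mc2, Cox7a2, Uqcrb, Ndufs5 and Ndufa10 and a bright Cox5a probe set), and these are not members.

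Each of 9 Affymetrix arrays measured the hypothalamus of a separate, normal rat. Animals were juvenile at day 26 (replicates 1, 2 and 3, named by the labels as controls), early pubertal at day 29 (replicates 7, 8 and 10) or late pubertal at day 31 (replicates 12, 14 and 20), with 3 arrays per stage. No strain is given in the labels. Values are log2(signal + 16) after quantile normalization, and differences and SEs are those of a limma fit over all 9 arrays. A probe set was tested where its mean lay above the 40th percentile, which left 91 of the 97 member probe sets and 84 of the 87 genes. Not tested were the only probe sets of Ndufaf1, Cox7b2 and Cox8b, and further dim probe sets of Atp5if1, Atp5me and Atp5po.

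Oxidative phosphorylation makes most of a neuron's ATP. Complexes I and II pass electrons from NADH and succinate to ubiquinone, complex III passes them to cytochrome c, and complex IV, cytochrome c oxidase, passes them to oxygen. Complexes I, III and IV pump protons across the inner mitochondrial membrane, and complex V, the ATP synthase, uses their return flow to make ATP. A few core subunits are encoded by mitochondrial DNA, while all members here are nuclear genes, many of them known targets of the transcription factors NRF1, GABPA (an ETS factor) and YY1.

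The promoters of the members are shown for what they share apart from their names. RefSeq promoters (GRCr8, 250 bases before to 50 after the gene start) were found for 78 of the 87 genes. Each was searched on both strands for GCATGCGC (the core of the NRF1 site), CCGGAAG (the core of the ETS site) and AAGATGGCG (the core of the YY1 site). Matches of different cores overlapped in none of the promoters. Below are Ndufa6, the only member promoter that holds all 3 cores (chr7:115750268-115750567 on the minus strand), Uqcrc1 with the NRF1 and YY1 cores (chr8:118467973-118468272 on the plus strand), Cox4i1, a core gene of complex IV with the ETS core (chr19:65630133-65630432 on the plus strand), the assembly factor Ndufaf5 with the NRF1 core (chr3:147961362-147961661 on the plus strand), and the muscle isoform Cox8b, which held none of the 3 (chr1:205408224-205408523 on the minus strand). Sequences run 5′ to 3′ on the strand of the gene, and capitals mark matches to a core on either strand.
Ndufa6: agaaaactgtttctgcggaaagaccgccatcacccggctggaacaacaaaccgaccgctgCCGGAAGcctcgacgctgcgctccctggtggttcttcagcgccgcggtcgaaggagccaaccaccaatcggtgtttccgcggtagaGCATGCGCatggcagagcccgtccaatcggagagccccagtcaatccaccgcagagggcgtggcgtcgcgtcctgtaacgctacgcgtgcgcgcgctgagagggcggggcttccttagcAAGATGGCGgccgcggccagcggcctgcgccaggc
Uqcrc1: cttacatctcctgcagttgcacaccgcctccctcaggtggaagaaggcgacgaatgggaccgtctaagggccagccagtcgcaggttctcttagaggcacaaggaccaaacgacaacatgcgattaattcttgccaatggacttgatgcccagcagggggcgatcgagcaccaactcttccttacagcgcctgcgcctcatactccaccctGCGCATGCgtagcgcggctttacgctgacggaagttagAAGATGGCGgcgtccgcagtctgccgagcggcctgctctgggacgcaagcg
Cox4i1: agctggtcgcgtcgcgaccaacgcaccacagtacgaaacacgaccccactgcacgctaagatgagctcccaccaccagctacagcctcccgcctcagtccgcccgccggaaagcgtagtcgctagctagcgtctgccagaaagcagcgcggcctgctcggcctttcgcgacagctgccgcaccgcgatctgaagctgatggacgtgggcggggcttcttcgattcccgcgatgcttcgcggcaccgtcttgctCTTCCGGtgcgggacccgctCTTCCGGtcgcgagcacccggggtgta
Ndufaf5: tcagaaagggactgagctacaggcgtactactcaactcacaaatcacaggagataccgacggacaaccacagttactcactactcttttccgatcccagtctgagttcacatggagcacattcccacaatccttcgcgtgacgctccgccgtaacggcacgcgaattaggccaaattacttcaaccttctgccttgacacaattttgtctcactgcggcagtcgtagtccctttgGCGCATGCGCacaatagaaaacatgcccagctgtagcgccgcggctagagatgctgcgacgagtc
Cox8b: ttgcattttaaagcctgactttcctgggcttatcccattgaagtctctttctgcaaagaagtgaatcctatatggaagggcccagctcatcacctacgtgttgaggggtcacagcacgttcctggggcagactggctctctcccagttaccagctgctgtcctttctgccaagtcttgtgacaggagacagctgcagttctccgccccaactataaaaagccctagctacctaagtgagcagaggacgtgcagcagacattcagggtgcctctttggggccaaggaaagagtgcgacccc

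The ETS core stood in 22 of the 78 member promoters (28.2%), against 16.7% of the 9909 promoters of genes with a tested probe set and 8.75% of all 33469 promoters in the table. The YY1 core stood in 11 member promoters (14.1%), against 3.57% and 1.73%. The NRF1 core stood in 9 (11.5%), against 4.9% and 2.47%. At least 1 of the 3 cores was present in 33 member promoters (42.3%), against 23% and 12%. Of the general promoter elements, TATAAA was found in 10.3% of member promoters, 6.76% of promoters of tested genes and 14.2% of all promoters. CCAAT was found in 34.6%, 37.2% and 37.5%, and only its shares lay close together. Median GC content was 56% in member promoters, 61% in those of tested genes and 51.7% over all. Of the 11 YY1 matches, 10 began within 50 bases before the gene start or after it, and all 11 lay on the strand of the gene. The YY1 spelling holds ATG, the start codon of proteins, and whether these matches lay at start codons was not tested. The 29 ETS matches were spread over both strands, 11 on the gene's strand and 18 opposite, with a median first base 28 bases before the start. These shares describe letters in a window and carry no test, and the motif spellings were chosen after other spellings had been counted.

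**Figure D1:**
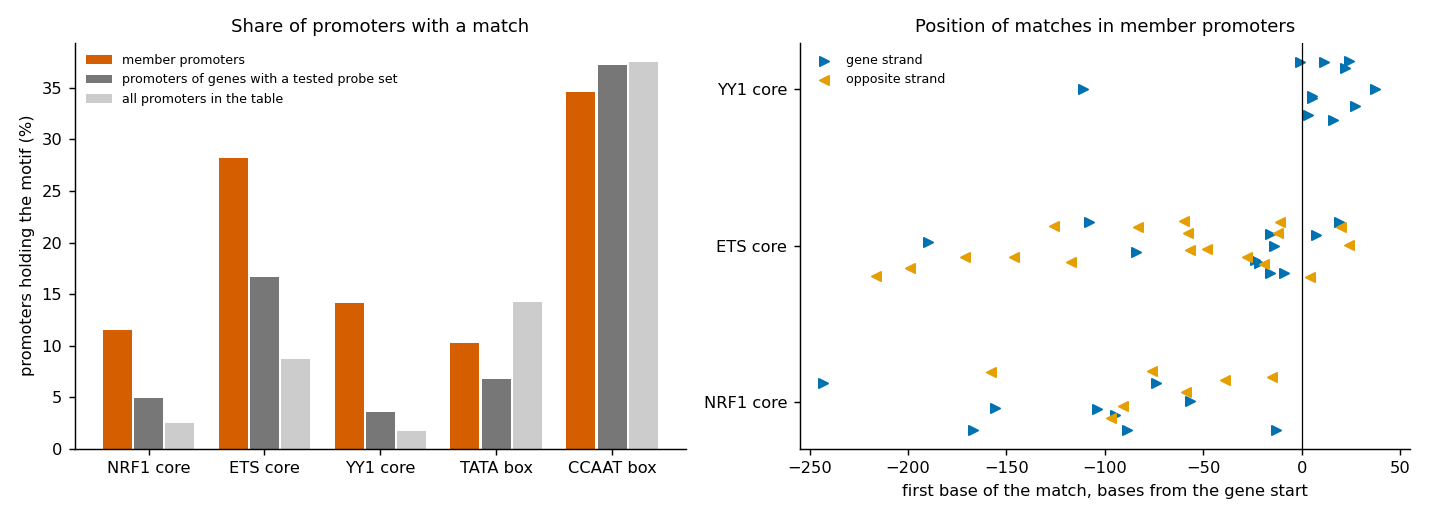
Left, percentage of promoters that hold each motif, for the 78 member promoters (orange), the promoters of genes with a tested probe set (dark grey) and all promoters in the table (light grey). Right, first base of each match in member promoters, in bases from the gene start (line at 0), with triangles for the strand of the match; 10 of the 11 YY1 matches cluster at the start.

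Median signal per array ran from 79.8 (early pubertal replicate 10) to 122 (late pubertal replicate 20) before normalization, and arrays correlated at 0.967 to 0.979 after it. For beta-actin, the control probes at the 3′ end read brighter than those at the 5′ end by a ratio that rises as RNA degrades, and this ratio ran from 2.14 to 3.24. The same ratio for GAPDH ran from 0.948 to 1.02. Of 14 markers of hypothalamic neurons, 12 passed the filter, where 10600 of all 14217 named genes did. Passing the filter therefore does not by itself bear out the tissue label. Pmch, Oxt and Avp had mean juvenile signals of 6600, 4486 and 3786, while Pomc and Sim1 fell below the filter. Red blood cell markers had 2 tested genes of 3 on the array, and pituitary markers 4 of 7.

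No member differed between stages past the test. Limma with Benjamini-Hochberg adjustment over all 18625 tested probe sets called 0 of 91 member probe sets in each of the 3 comparisons, as it called 0% of all probe sets in each. In early pubertal against juvenile animals, 2 member probe sets, both higher, had a limma p under 0.05 before adjustment, where 1.92% of all probe sets were higher and 2.54% lower at that level. In late pubertal against juvenile animals 1 higher and 1 lower member probe set did, against 2.23% and 1.92%. In late against early pubertal animals 1 higher and 4 lower did, against 2.94% and 2.27%. As a share of the 91, these counts come to 2.2%, 2.2% and 5.49%.

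The sizes of the differences were small as well as uncalled. The 95% confidence interval of the difference lay wholly within 1.25-fold in either direction for 67 of the 91 member probe sets between day 26 and day 29, for 70 between day 26 and day 31 and for 64 between day 29 and day 31. The same bound held for 25.3%, 26.1% and 24.6% of all tested probe sets, which were not matched to the members by signal. All 91 intervals lay within 2-fold in each comparison. These intervals rest on the limma SE, which combines a probe set's own spread between 3 animals per stage with the spread of other probe sets. The other probe sets contributed 5.8 degrees of freedom beside 6 from the probe set itself. Intervals from each probe set's own spread alone were not computed. The intervals are not adjusted for the number of probe sets.

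The members also varied less between animals of a stage than probe sets in general. The median within-stage SD was 0.0939 log2 units over the 91 member probe sets and 0.173 over all tested probe sets. Spread fell with signal on these arrays: over the 2125 tested probe sets whose mean signal lay between the members' quartiles, the median SD was 0.105. Among tested members the spread was widest for the second probe set of Uqcrc2 at 0.38, Cox6c-ps1, a pseudogene of Cox6c, at 0.326, and Ndufa5 at 0.315.

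**Figure D2:**
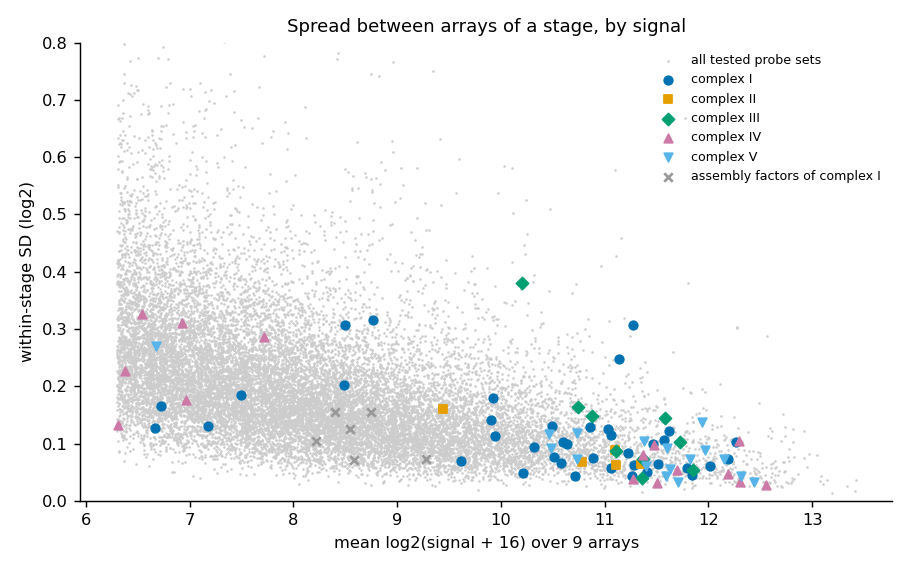
Within-stage SD of log2 values (vertical axis) against mean log2(signal + 16) over 9 arrays (horizontal axis) for all tested probe sets (grey; 45 lie above the plotted limit of 0.8) and the members by complex (coloured symbols). Members gather at the right, at high signal and low spread, with a median SD of 0.0939.

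The median difference over member probe sets was 0.026 from juvenile to early pubertal, 0.0125 from juvenile to late pubertal and −0.0224 from early to late pubertal animals, beside medians of −0.00142, −0.00148 and 0.000367 over all tested probe sets. In the first comparison 60 of 91 (65.9%) were higher, against 49.6% of all probe sets, and in the last 34 of 91 (37.4%), against 50.1%. The probe sets behind these shares were not matched to the members by signal. The comparisons share arrays, so the early pubertal arrays enter both counts. With the deposited level left as it was, the sign of the member medians themselves turned, to −0.167 for early pubertal against juvenile beside −0.24 over all probe sets, and to 0.171 for late against early beside 0.224. Less the median of all probe sets, the members kept their sign, at 0.0275 and 0.073 for early against juvenile and at −0.0228 and −0.0523 for late against early, with and without normalization.

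**Figure D3:**
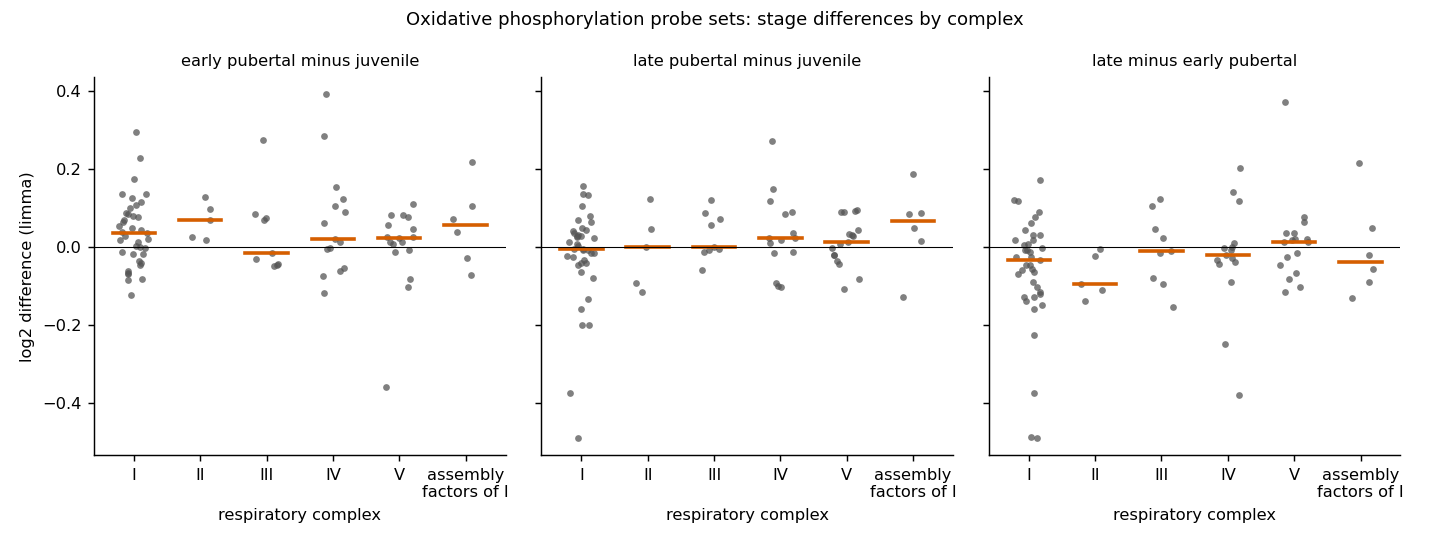
Log2 difference (vertical axis) of each tested member probe set (grey points) by respiratory complex (horizontal axis) in the 3 comparisons; orange bars mark the median of each complex. Points lie between −0.491 and 0.391, and the complex medians run from −0.0962 to 0.069.

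Single arrays varied within each stage. Relative to all tested probe sets, the median deviation of members from their own mean was 0.000777, −0.0504 and −0.0178 on the juvenile arrays, taken in the order of their replicate numbers. On the early pubertal arrays it was 0.0185, 0.0313 and −0.0127, and on the late pubertal arrays 0.0163, −2.73e-07 and −0.0509. The stages overlapped, and the lowest arrays were juvenile replicate 2 and late pubertal replicate 20. Juvenile replicate 2 was the lowest of the 9 arrays for 28 of 91 member probe sets (30.8%), against 14.8% of all tested probe sets. Early pubertal replicate 8 was the highest for 25 (27.5%, against 16.5%) and the lowest for 22 (24.2%, against 18.9%). The actin 3′ to 5′ ratio was 3.16 in juvenile replicate 2 and 3.24 in late pubertal replicate 20, the highest of the 9, and 2.14 in early pubertal replicate 8, the lowest. The GAPDH ratio was 1.02, 0.985 and 0.957 in the same arrays, in that order, within a range of 0.948 to 1.02 over the 9. The part of RNA quality in these member values was not tested.

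**Figure D4:**
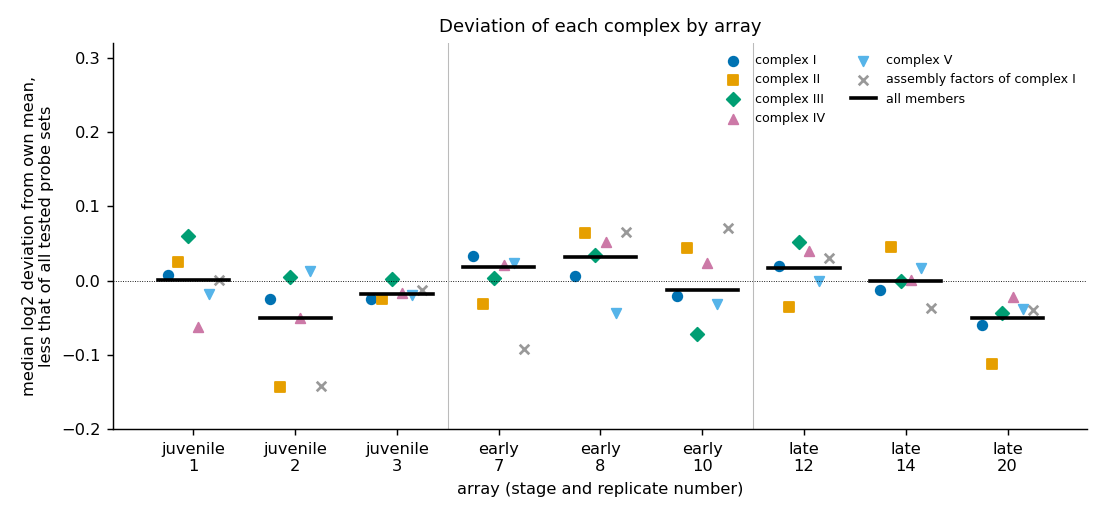
Median log2 deviation of the probe sets of each complex from their own means, less that of all tested probe sets (vertical axis), in each of 9 arrays (horizontal axis); black bars give all members. The bars of the 3 stages overlap and are lowest in juvenile replicate 2 and late pubertal replicate 20, at −0.0504 and −0.0509.

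Complex I takes electrons from NADH, and its core subunits varied little. Ndufs1, the largest iron-sulfur subunit, stood at 10.71, 10.75 and 10.75 in juvenile, 10.65, 10.74 and 10.67 in early pubertal and 10.73, 10.67 and 10.76 in late pubertal animals. All 9 arrays thus lay close together and the stages overlapped. Its differences from juvenile were −0.0475 ± 0.0613 (SE, n = 3 per stage) and −0.0172 ± 0.0613. Over the 6 core genes Ndufs1, Ndufs3, Ndufs7, Ndufs8, Ndufv1 and Ndufv2, all in the arm that takes up the electrons, differences ran from −0.0475 to 0.134 at day 29 and from −0.0173 to 0.0643 at day 31, both against juvenile. Ndufs7 gave the 0.134 ± 0.0737, which was −0.109 at the deposited level, as Ndufv1 went from 0.0751 to −0.165. The median of all probe sets at that level was itself −0.24.

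Ndufb11, a supernumerary subunit of the membrane arm encoded on the X chromosome, varied widely between arrays. It stood at 11.06, 11.68 and 11.57 in juvenile, 11.79, 11.52 and 11.003 in early pubertal and 10.98, 11.04 and 10.82 in late pubertal animals, in the order of the replicate numbers as everywhere here. The late pubertal arrays were all below the juvenile arrays, with juvenile replicate 1 just above them, and they overlapped early pubertal replicate 10. The difference of late pubertal from juvenile animals was −0.49 ± 0.19 (95% interval −0.895 to −0.0862), with a limma unadjusted p of 0.0215 and an adjusted p of 0.99978. From early to late pubertal animals it was −0.49 ± 0.19, with an adjusted p of 0.914, and from juvenile to early 0.000377 ± 0.19.

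Ndufa5, a subunit of the hydrophilic arm, stood at 9.09, 8.65 and 8.83 in juvenile, 8.46, 9.23 and 9.21 in early pubertal and 8.60, 8.20 and 8.64 in late pubertal animals. Late pubertal arrays were below all juvenile arrays but overlapped early pubertal replicate 7. The differences were −0.37 ± 0.20 against juvenile and −0.49 ± 0.20 against early pubertal animals, the latter with a limma unadjusted p of 0.0333 and an adjusted p of 0.914. Ndufa7 was read by 2 probe sets that went opposite ways from early to late pubertal animals. Its brighter probe set differed by 0.17 ± 0.10 and its dimmer by −0.37 ± 0.16, so the gene has no settled direction. The medians over the 39 complex I probe sets were 0.0355, −0.00508 and −0.034 in the 3 comparisons, in the order early against juvenile, late against juvenile and late against early.

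Assembly factors help build complex I without staying in it. Ndufaf3 stood at 9.27, 9.04 and 9.22 in juvenile, 9.44, 9.37 and 9.37 in early pubertal and 9.26, 9.28 and 9.24 in late pubertal animals. The early pubertal arrays lay above those of both other stages. Its difference from juvenile was 0.22 ± 0.09 (limma unadjusted p 0.0302, adjusted p 0.994), and that from early to late −0.13 ± 0.09. Ndufaf5 stood at 8.54, 8.5 and 8.55 in juvenile, 8.48, 8.48 and 8.54 in early pubertal and 8.71, 8.61 and 8.84 in late pubertal animals. Here the late pubertal arrays lay above the other 6, with differences of 0.19 ± 0.10 from juvenile and 0.21 ± 0.10 from early pubertal animals (limma unadjusted p 0.0499, adjusted p 0.914). With the deposited level left as it was, the difference of Ndufaf3 from juvenile at day 29 was −0.0434, and that from early to late 0.0981. The medians of all probe sets at that level were −0.24 and 0.224.

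**Figure D5:**
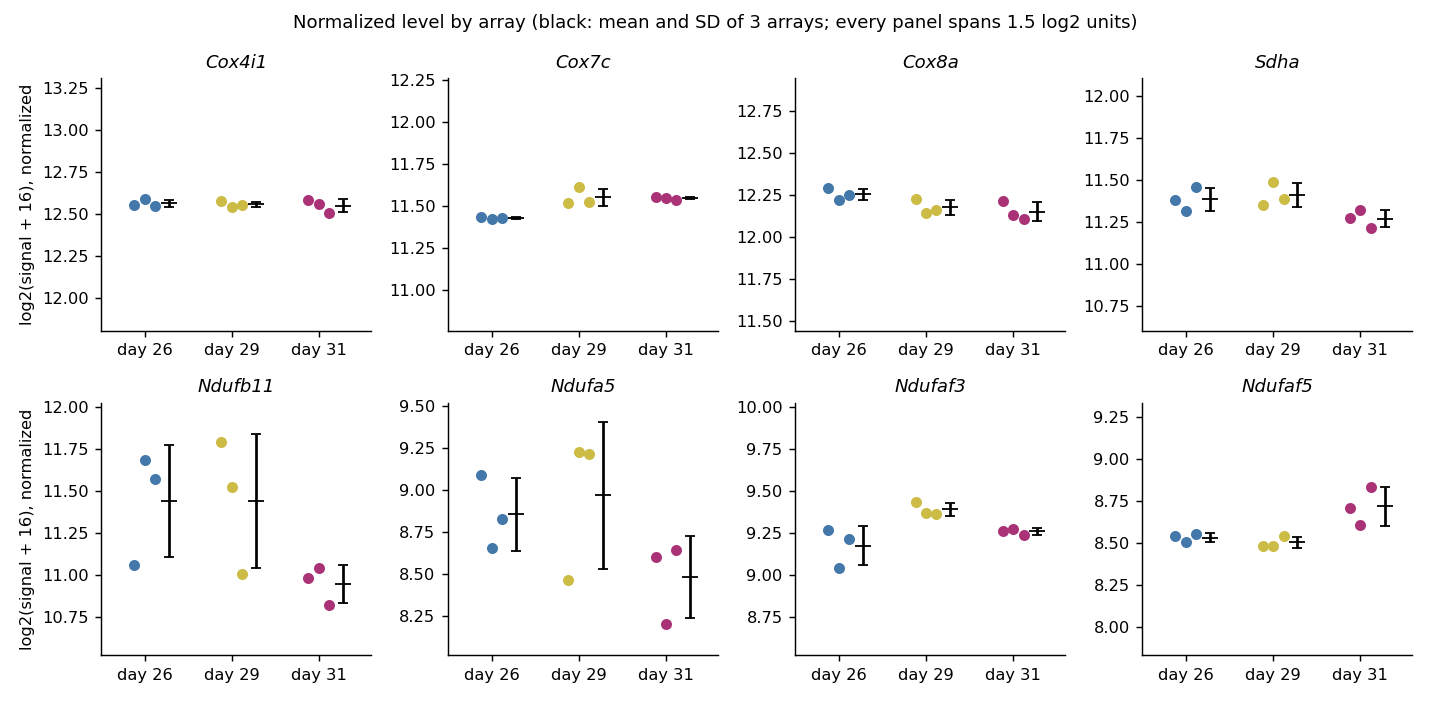
Normalized log2(signal + 16) by array (vertical axis, 1.5 log2 units in every panel) for 8 members at day 26 (juvenile, blue), day 29 (early pubertal, yellow) and day 31 (late pubertal, purple); black marks give the mean and SD of 3 arrays. Cox4i1 is nearly level, and Ndufb11 and Ndufa5 spread widely within stages. Ndufaf3 and Ndufaf5 each have a stage whose arrays do not overlap the others, with mean differences of 0.13 to 0.22 units in size.

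Complex II, which also works in the tricarboxylic acid cycle, has 4 subunits. Sdha, its flavoprotein, stood at 11.38, 11.32 and 11.45 in juvenile, 11.35, 11.49 and 11.38 in early pubertal and 11.27, 11.32 and 11.22 in late pubertal animals. Late pubertal arrays were below the early pubertal arrays and overlapped the juvenile arrays. The difference from early to late was −0.14 ± 0.06 (limma unadjusted p 0.0425, adjusted p 0.914). The membrane anchor Sdhc stood 0.13 ± 0.07 and 0.12 ± 0.07 above juvenile at day 29 and day 31, and the iron-sulfur subunit Sdhb 0.069 ± 0.0626 and 0.0454 ± 0.0626, with overlapping stages in both. Sdhd, the other anchor, had values of 0.0177 ± 0.119 and 0.0966 ± 0.0678 on its 2 probe sets at day 29. All 5 probe sets of the complex had positive values from juvenile to early and negative values from early to late, with medians of 0.069 and −0.0962. At the deposited level, where the median of all probe sets was itself −0.24 and 0.224, all 5 turned sign in both comparisons, with Sdhb at −0.15 and Sdhc at −0.0982 from juvenile to early and Sdha at 0.0336 from early to late. Over the same comparisons juvenile replicate 2 was low for this complex, at a relative deviation of −0.143, as was late pubertal replicate 20 at −0.113.

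Complex III holds cytochrome c1 (Cyc1), the Rieske protein (Uqcrfs1) and the core proteins Uqcrc1 and Uqcrc2. From juvenile to early pubertal animals Cyc1 differed by 0.068 ± 0.0722, Uqcrfs1 by 0.0747 ± 0.102 and Uqcrc1 by 0.0839 ± 0.11. From juvenile to late pubertal animals the values were 0.0561, −0.00476 and −0.0123, with the same SEs. Uqcrc2 was read by 2 probe sets of opposite sign at day 29. The brighter gave −0.0476 ± 0.053 and the other, which ran from 9.59 in juvenile replicate 2 to 10.78 in early pubertal replicate 8, gave 0.27 ± 0.23. No probe set of complex III had stages that did not overlap in any comparison.

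Complex IV carried the most even member. Cox4i1, the regulatory subunit that binds ATP, gave the highest signal of the members and stood at 12.55, 12.59 and 12.55 in juvenile, 12.58, 12.54 and 12.55 in early pubertal and 12.58, 12.56 and 12.51 in late pubertal animals. Its differences from juvenile were −0.00614 ± 0.0397 (95% interval −0.0928 to 0.0805) and −0.0138 ± 0.0397 (−0.10 to 0.0728).

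Cox7c, a small membrane subunit, stood at 11.43, 11.42 and 11.43 in juvenile, 11.52, 11.61 and 11.52 in early pubertal and 11.55, 11.55 and 11.54 in late pubertal animals. All 6 pubertal arrays lay above the juvenile arrays. The differences of 0.12 ± 0.05 (1.09-fold) at day 29 and 0.12 ± 0.05 at day 31 had limma unadjusted p-values of 0.0311 and 0.0356 and adjusted p-values of 0.994 and 0.99978, and they share the juvenile arrays. At the deposited level the first was −0.0791, where the median of all probe sets was −0.24 in that comparison. Cox7a2l, which joins complexes III and IV into supercomplexes, also had all 6 pubertal arrays above the juvenile arrays, with 11.21, 11.23 and 11.19 in juvenile, 11.26, 11.32 and 11.32 in early pubertal and 11.35, 11.29 and 11.26 in late pubertal animals, and a difference of 0.088 ± 0.054 at day 29, which was −0.12 at the deposited level. Cox8a stood at 12.29, 12.22 and 12.25 in juvenile and 12.21, 12.13 and 12.10 in late pubertal animals, a difference of −0.10 ± 0.05 (limma unadjusted p 0.0506, adjusted p 0.99978).

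Cox5a, a nuclear subunit near the catalytic core, was higher in each early pubertal array (8.26, 7.80 and 7.87) than in each juvenile array (7.47, 7.61 and 7.68), with late pubertal arrays at 8.07, 7.41 and 7.31. This Cox5a probe set was dim, at deposited signals of 155 to 287, and the bright Cox5a probe set was not a member. The difference of 0.39 ± 0.20 was the largest positive value of a member in this comparison and had a limma adjusted p of 0.994. Its partner Cox5b differed by 0.0185 ± 0.0671. Cox7b differed by −0.12 ± 0.07 at day 29 and by 0.14 ± 0.07 from day 29 to day 31, with early pubertal replicate 8 lowest at 12.03. Cox6a1 and Cox6b1 differed by −0.0922 ± 0.0739 and 0.0169 ± 0.0545 at day 31 against juvenile. The medians of complex IV were 0.0185, 0.0216 and −0.0212 in the order of the comparisons above.

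Several subunits of complex IV have isoforms known from heart, skeletal muscle, lung or testis. The muscle isoform Cox8b was the dimmest member, with deposited signals of 8.1, 6.58 and 5.85 in juvenile, 9.1, 22.5 and 3.13 in early pubertal and 12.8, 8.86 and 8.99 in late pubertal animals, and was not tested. The lung-type Cox4i2 stood at signals of 72.6, 62.7 and 70.6 in juvenile animals, the muscle isoforms Cox6a2 and Cox7a1 at 95, 84.6 and 120 and at 110, 123 and 95.4, and the testis isoform Cox6b2 at 53.5, 65.2 and 62.1. Probe sets differ in how strongly they bind, so these signals do not rank the transcripts. From juvenile to late pubertal animals Cox4i2 differed by 0.15 ± 0.21, Cox6a2 by 0.27 ± 0.22, Cox7a1 by 0.083 ± 0.167 and Cox6b2 by 0.0346 ± 0.18, all with overlapping stages. Of 11 muscle markers on the array, 8 lay below the filter, Ckm, Mb and Myh7 among them, and the summed marker signal was 5067 to 6176 in juvenile, 4406 to 5672 in early pubertal and 5174 to 5892 in late pubertal arrays.

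Complex V makes ATP. Atp5f1a, the alpha subunit of its catalytic head, stood at 11.61, 11.49 and 11.63 in juvenile, 11.65, 11.73 and 11.67 in early pubertal and 11.65, 11.62 and 11.58 in late pubertal animals. Early pubertal arrays were all above juvenile arrays, by 0.11 ± 0.06 (limma adjusted p 0.994). At the deposited level the value was −0.0807, where the median of all probe sets was −0.24 in that comparison. The beta subunit Atp5f1b differed by 0.0805 ± 0.0582 (−0.0614 at the deposited level) and the gamma subunit Atp5f1c by 0.0118 ± 0.0667 in that comparison. Atp5mc3, a gene for the proton-carrying c-ring, differed by −0.0148 ± 0.0461. Atp5mk, a small subunit of the membrane part, was the single member lower in every early pubertal array (12.45, 12.35 and 12.41) than in every juvenile array (12.48, 12.48 and 12.50), by −0.0817 ± 0.0418. Centring the arrays on their medians turned that value to 0.0225. Atp5po, the subunit that links head and stalk, was 0.0895 ± 0.0523 higher in late pubertal than in juvenile animals without overlap.

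Atp5if1 encodes the inhibitor that stops the synthase from running backwards. Its brighter tested probe set stood at 10.79, 10.84 and 10.74 in juvenile, 10.81, 10.59 and 10.67 in early pubertal and 10.72, 10.73 and 10.68 in late pubertal animals, with differences from juvenile of −0.10 ± 0.07 and −0.0826 ± 0.0701. Its dim probe set had a value of −0.36 ± 0.21 at day 29, the lowest of any member, and 0.37 ± 0.21 from day 29 to day 31, resting on early pubertal replicate 8 at 5.98. Over the 17 probe sets of complex V the medians were 0.0215, 0.0125 and 0.0129.

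Stages whose arrays did not overlap were counted for all members. From juvenile to early pubertal animals this held for 6 higher member probe sets (6.59%, against 3.86% of all tested) and 1 lower (1.1%, against 4.43%). The 6 were Ndufaf3, Cox5a, Cox6b2, Cox7a2l, Cox7c and Atp5f1a, so that 4 of the 15 complex IV probe sets were among them. Of these, Cox5a was dim (mean log2 value 7.72) and Cox6b2 lay just above the filter (6.31 against 6.30). At the deposited level the differences of Ndufaf3, Cox7a2l, Cox7c and Atp5f1a were negative in this comparison. The median of all probe sets was itself −0.24 there, which lies below the values of these 4. From juvenile to late pubertal animals it held for 5 higher (5.49%, against 5.9%), which were Ndufaf5, Ndufa2, Cox7a2l, Cox7c and Atp5po, and 7 lower (7.69%, against 5.52%). From early to late pubertal animals it held for Ndufaf5 and Atp5mf higher (2.2%, against 5.97%) and for 6 lower (6.59%, against 5.37%). Ndufa2 and Atp5mf are named here after their values were seen. The shares lie on both sides of those of all probe sets, and no test was run on them.

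Other genes of mitochondrial energy supply were read from lists, each gene by its brightest tested probe set, and limma called 0 of their members in either direction in each comparison. The assembly factors outside the member rule had 33 tested genes of 39 listed, with 18 positive and 15 negative values in each comparison. Ecsit, which works in complex I assembly, stood 0.31 ± 0.12 higher at day 29 and had a difference of −0.30 ± 0.12 from day 29 to day 31, while Foxred1 had a value of −0.33 ± 0.17 at day 29. Genes for coenzyme Q and the mobile carriers had 16 tested genes, 12 with positive and 4 with negative values at day 29 against juvenile, and 7 and 9 in each of the other comparisons. The methyltransferase Coq3 stood at 0.20 ± 0.09 at day 29. Pdss2, which makes the side chain of coenzyme Q, had a value of −0.35 ± 0.14 from day 29 to day 31. Carriers, porins and uncouplers had 13 tested genes, 9 with positive and 4 with negative values at day 29 against juvenile, 5 and 8 at day 31 against juvenile, and 3 and 10 from day 29 to day 31. Ckmt1, the mitochondrial creatine kinase, stood at 0.33 ± 0.12 at day 29 and at −0.26 ± 0.12 from day 29 to day 31. In that list Ak3, an adenylate kinase, stood at 0.21 ± 0.09 at day 31 against juvenile.

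Tricarboxylic acid cycle and pyruvate dehydrogenase genes had 24 tested genes, 17 with positive values at day 29 and 13 at day 31 against juvenile and 12 from day 29 to day 31, with medians of 0.031, 0.00547 and −0.00096. Pc, pyruvate carboxylase, stood at 0.28 ± 0.14 and 0.30 ± 0.14, and the pyruvate carrier subunit Mpc2 at −0.17 ± 0.08 at day 29. Glycolysis had 14 tested genes, 11 with positive values at day 29 and 6 at day 31 against juvenile and 1 from day 29 to day 31, with medians of 0.0305, −0.00361 and −0.0524. Pfkm, the muscle-type phosphofructokinase, stood at 0.16 ± 0.07 at day 29, and Eno2, the neuronal enolase, at −0.11 ± 0.06 at day 31 against juvenile. Mitochondrial biogenesis and DNA had 19 tested genes, with positive values for 9, 12 and 12 in the same order, and the mitochondrial RNA polymerase Polrmt had a value of −0.38 ± 0.16 from day 29 to day 31. Ppargc1a, the coactivator PGC-1alpha, had −0.58 ± 0.23 on its brightest probe set and −0.12 ± 0.25 and 0.094 ± 0.138 on the others, so its probe sets disagreed. Gabpa stood at −0.23 ± 0.13 at day 29. Of the 10 antioxidant genes 6, 5 and 4 had positive values, and Gpx1 had the smallest p at day 31 against juvenile, at 0.13 ± 0.07. All values in the text on these lists had limma adjusted p-values of 0.914 or more.

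In whole hypothalamus, a change in the number of cells of a type and a change in RNA per cell cannot be told apart. Neuron markers had negative values for 9 of 10 tested genes at day 31 against juvenile, with a median of −0.0988, and their summed signal was 30521 to 34187 in juvenile, 30027 to 33888 in early pubertal and 30454 to 31349 in late pubertal arrays. Microglia markers had negative values for 8 of 9 in the same comparison, at sums of 2569 to 2904, 2755 to 2999 and 2385 to 2488. Markers of leptomeninges and fibroblasts had positive values for 10 of 10, at sums of 14444 to 17916, 14922 to 22310 and 17319 to 20281. Astrocyte markers had positive values for 8 of 10, at sums of 39045 to 40415, 40045 to 42667 and 40195 to 42667. No marker was listed at 0, limma called none of them, and their part in the member values was not tested.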

How the data were processed

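The authors deposited signal intensity values per probe set, on a linear scale, made with MAS5, per the submitters' processing notes; its version and target level are not given in the sources used. Per the labels' protocols, column-purified RNA was turned into biotin-labelled cRNA through oligo-dT primed cDNA. Of 31099 probe sets, 57 controls were left out. Intensities were taken as log2(signal + 16), quantile-normalized between arrays and kept above the 40th percentile of mean level (18625 probe sets). The deposited scale carried unequal array levels and is an alternative.

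Stages were fitted with limma 3.58.1 (R 4.3.3), 1 mean per stage over 9 arrays, intensity trend, two-sided, Benjamini-Hochberg over probe sets at 0.05, adjusted within each of 3 comparisons. The code of the fit was run on simulated data with independent noise and planted changes larger than any member difference. That simulation held no array-wide effects, so it does not cover small differences on arrays of unequal level. The labels give no batch, and replicate numbers are not shared between stages. Symbols came from the platform annotation: 20826 probe sets had 1, 436 several and 9780 none. Members and lists were chosen with earlier results of these data known. Named members were, per comparison and direction, the 4 with the smallest p, core subunits, isoforms, the brightest and dimmest, genes whose probe sets disagreed by over 0.3, and the 2 smallest p per list. Lists of oligodendrocyte, endothelium, choroid plexus, pituitary and red blood cell markers were measured too, and limma called none of their genes. Nearly identical copies and pseudogenes exist for many members, so a probe set may read more than its gene. The motif spellings were chosen after other spellings had been counted. The number of arrays limits precision.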

Additional observations from a re-analysis of the deposited data

How the results depend on the processing

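The alternatives changed the added constant (1 or 64), the scaling (none, called the deposited level, or median centring), the filter (none, or the 60th percentile) and the prior (no trend, or robust), or used array weights, only the 6 arrays compared or 1 probe set per gene, or left out each of 9 arrays in turn. Under all 20 settings limma called 0 member probe sets in each comparison. Over all probe sets it called 10, 1 and 21 at the deposited level, for early against juvenile, late against juvenile and late against early. With array weights it called 1 for late against juvenile, and 0 to 1 with an array left out. The member median was −0.167 and 0.171 at the deposited level for early against juvenile and late against early, beside −0.24 and 0.224 over all probe sets. For late against early it was −0.0528 with median centring. Less the median of all probe sets, the member median ranged from 0.0183 to 0.073 for early against juvenile, 0.00754 to 0.0304 for late against juvenile and −0.0523 to −0.00277 for late against early. The prior and the use of only the 6 arrays compared cannot move this value. No scaling and median centring gave the same values, and the settings reuse the same arrays. Of 2484 recomputed differences of named members, 195 changed sign; in 23 of these the value had exceeded its SE, 20 at the deposited level and 3 with median centring, Cox8a (6.94e-05 at day 29) and Atp5mk (0.0225 and 0.00508) being those 3. No paired analysis was possible because the stages share no replicate numbers.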
